A study of Mus musculus with 12 samples.

Results

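The 38 genes described here are imprinted genes of the mouse, 19 known as maternally expressed and 19 as paternally expressed. They are listed by name and not by a threshold on measured values, but were chosen with earlier results of these data known. Which probe stands for a gene, and whether it could be tested, depend on measured signals. Of the 38, 35 had a named probe on the array and 28 had a probe that was detected on 3 or more of the 12 arrays, which is the set that could be tested. These are 16 maternally expressed and 12 paternally expressed genes, among 11445 genes tested and 19057 genes on the array. A probe counted as detected where its detection p-value, which sets its signal against the negative control beads of the same array, was under 0.05.

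An imprinted gene is transcribed mainly from the copy inherited from 1 parent, and the copies are told apart by DNA methylation that is laid down in the egg or sperm at imprinting control regions and kept through the divisions of the embryo. Many imprinted genes lie in clusters that share a control region, and many act on fetal growth, the placenta or the brain. Several are imprinted only in the placenta or in neurons, so the allele named here is the textbook allele and not a result. The arrays read the summed signal of both copies, and the expressed allele was not measured.

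Expression was measured on Illumina bead arrays in E14, a male wild-type embryonic stem cell line of the 129/Ola strain, which is 1 line. Cells grew on gelatin in medium with serum and LIF (leukemia inhibitory factor), free of feeder cells. The 4 groups were untreated cells (0 h) and cells given panobinostat (LBH589), an inhibitor of histone deacetylases, at 50 nM for 2 h, 6 h and 18 h, with 3 arrays each. No vehicle control and no untreated cells kept for 18 h are named, so drug and time in culture cannot be told apart. Whether replicate arrays stand for separate cultures is not stated in the labels. The p-values therefore measure no more than the spread among these arrays, part of which may be technical.

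Values are normalized log2 signals, and differences are log2 changes with the standard error (SE) of a limma fit to all 12 arrays. The p-values are adjusted by Benjamini-Hochberg over all 11445 genes, and a gene is said to have risen or fallen where the adjusted p is under 0.05. Per array 16813 to 18111 of 45281 probes were detected and the mean signal lay between 307.3 and 482.7 units. Arrays of 1 group correlated at 0.970 to 0.989. The cells carried embryonic stem cell markers, 11 of 12 listed ones testable. At 18 h 10 of them were lower (90.9%, beside 15.7% of all genes tested). The core pluripotency factors Pou5f1 (log2 change -2.28, SE 0.17, adjusted p = 2.54e-06) and Nanog (-2.28, SE 0.33, adjusted p = 0.000199), and the stem cell marker Zfp42 (-2.44, SE 0.33, adjusted p = 0.000120), were among them. The summed level of this list was 15.62 to 15.90 at 0 h and 14.81 to 14.98 at 18 h. The summed level of the 4 testable of 10 fibroblast markers was 7.26 to 8.08 at 0 h and 9.28 to 9.94 at 18 h, while Col1a2, Col3a1, Lum, Fap, S100a4 and Postn were not detected on enough arrays to be kept. Of the 4, Thy1 was by far the brightest, with a mean of 6.93 at 0 h and 9.15 at 18 h. Col1a1 was detected on 1, 0, 2 and 1 arrays at 0 h, 2 h, 6 h and 18 h. Pdgfra and Pdgfrb were detected on no array of 0 h or 2 h and were kept only through the later groups. Trophoblast markers, 6 of 11 testable, summed to 11.02 to 11.21 at 0 h and 10.60 to 11.10 at 18 h, with Elf5, Hand1 and Tpbpa not kept, and 1 of the 6, Cdx2, was called higher at 18 h (1.94, adjusted p = 0.000371). The neural list (4 of 10 testable) had 1 gene higher and 2 lower at 18 h. The endoderm list (5 of 8) had 2 higher, and the blood and endothelium list (5 of 8) 1 higher and 1 lower. Of all genes tested 20.9% were called higher and 15.7% lower at 18 h. The 40% called in the endoderm list and in the blood and endothelium list is close to the 36.6% of all genes. The blood gene called higher, Hba-a1, was likewise detected on no array of 0 h or 2 h and kept only through the later groups. The part of these shifts in the results was not tested, and in bulk RNA fewer cells of a type and less RNA per cell cannot be told apart.

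After 2 h none of the 28 imprinted genes had changed, 0 against 3.48% of all genes tested, with 3 at an unadjusted p under 0.05 in limma (18% of all genes). After 6 h 5 had changed, of which Peg3 and Slc22a18 rose and Grb10, Ppp1r9a and Slc38a4 fell, beside 31.3% of all genes called (17.7% higher and 13.6% lower). Leaving out 1 array moved the count of 5 to between 1 and 7, with 3 or fewer without 0 h replicate 1 or 3, 2 h replicate 1, or 6 h replicate 1 or 3. Of the 5 calls only that of Ppp1r9a held under all 24 alternatives run on it. After 18 h 10 had changed, which is 35.7% of the 28 and close to the 36.6% of all genes: Igf2r, Slc22a18 and Ndn rose, and Grb10, Phlda2, Ppp1r9a, Gnas, Impact, Ube3a and Slc38a4 fell. The 7 that fell are 25% of the 28, beside 15.7% of all genes, and the 3 that rose are 10.7%, beside 20.9%. Under scaling to the 75th percentile 8 fell and 3 rose, beside 20.5% and 15.6% of all genes, and that scaling shifts the median of all genes at 18 h by -0.16. A moderated F test over the 4 groups called 12 of the 28, the 10 of 18 h with Peg3 and Rtl1, beside 43.9% of all genes.

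The maternally expressed genes counted 2 risen and 5 fallen of 16 at 18 h, with a median log2 change of -0.18. Among the paternally expressed genes 1 had risen and 2 had fallen of 12, with a median of 0.07. The median over all genes tested was 0.05, with 20.9% of them called higher and 15.7% lower. The share called was 43.8% of the maternally and 25% of the paternally expressed genes, beside 36.6% of all genes. Members of both allele groups moved in both directions, as did the genes tested as a whole. No test of a difference between the allele groups was made.

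**Figure D1:**
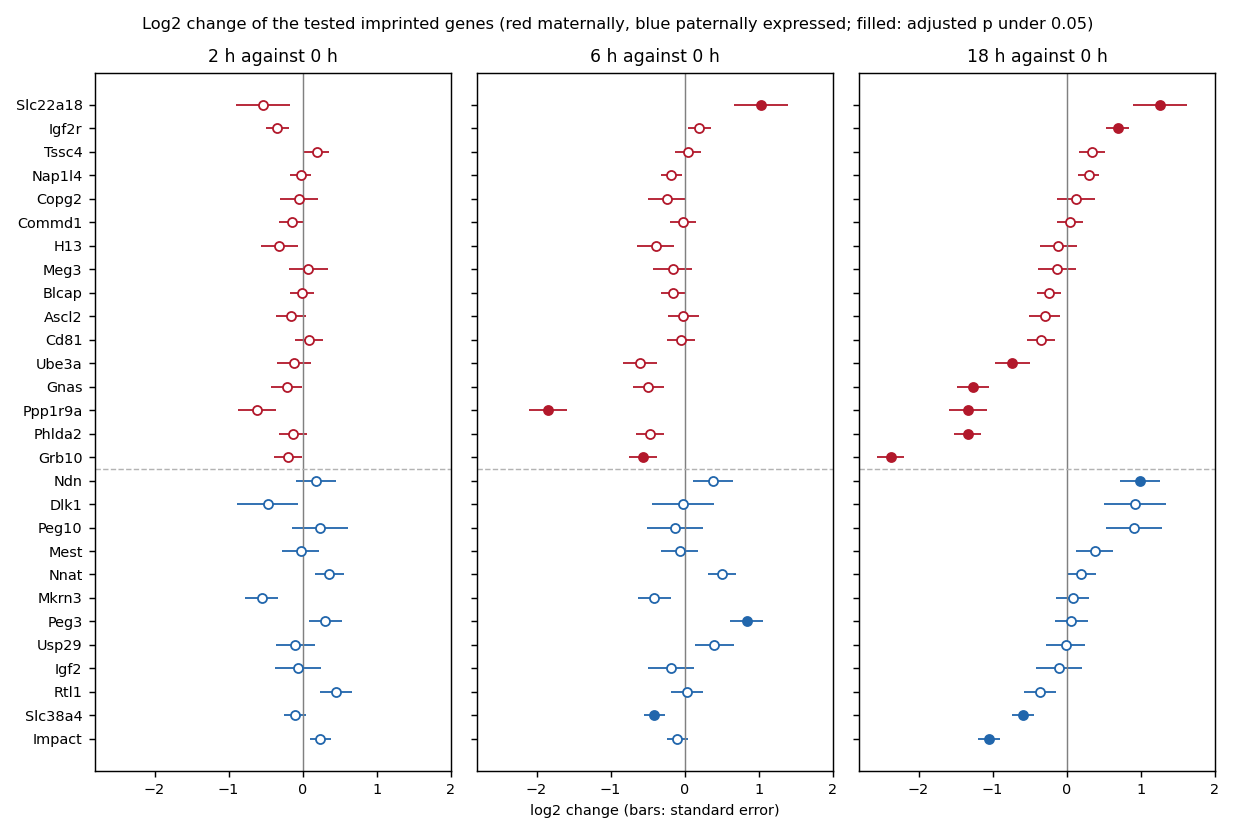
Log2 change of each of the 28 tested imprinted genes at 2 h, 6 h and 18 h against 0 h, with SE bars from the limma fit. Red points above the dashed line are maternally expressed and blue points paternally expressed genes, and filled points passed an adjusted p of 0.05. No point is filled at 2 h, 5 are at 6 h and 10 at 18 h, with Grb10 farthest to the left at -2.38.

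The 300-base promoter windows of 4 of the called genes are shown from RefSeq (GRCm38.p6), from 250 bases before to 50 after the start: Grb10, whose change was the largest, the neighbours Phlda2 and Slc22a18, which moved in opposite directions, and Ndn, the paternally expressed gene called higher at 18 h. Their windows are chr11:12037371-12037670 on the minus strand for Grb10 (the more GC-rich of 2 listed), chr7:143502475-143502774 on the minus strand for Phlda2, chr7:143473539-143473838 on the plus strand for Slc22a18 and chr7:62348027-62348326 on the plus strand for Ndn. Capitals mark, on either strand, the GC box GGGCGG, the TATA box TATAAA and TGCCGC, the core of the motif known to be bound by ZFP57, a zinc finger protein that protects imprints.
Grb10: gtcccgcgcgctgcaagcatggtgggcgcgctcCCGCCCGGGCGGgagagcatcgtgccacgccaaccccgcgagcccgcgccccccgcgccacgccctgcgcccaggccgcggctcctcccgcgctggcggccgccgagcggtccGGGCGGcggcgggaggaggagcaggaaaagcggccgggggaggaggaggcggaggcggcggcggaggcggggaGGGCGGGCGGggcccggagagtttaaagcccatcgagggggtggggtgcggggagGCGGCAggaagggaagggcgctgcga
Phlda2: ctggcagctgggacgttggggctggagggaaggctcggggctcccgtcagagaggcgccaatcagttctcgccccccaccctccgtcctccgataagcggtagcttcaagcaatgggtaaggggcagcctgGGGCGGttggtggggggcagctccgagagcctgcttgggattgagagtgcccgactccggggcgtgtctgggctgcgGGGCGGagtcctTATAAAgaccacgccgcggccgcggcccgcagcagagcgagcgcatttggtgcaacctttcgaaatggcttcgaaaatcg
Slc22a18: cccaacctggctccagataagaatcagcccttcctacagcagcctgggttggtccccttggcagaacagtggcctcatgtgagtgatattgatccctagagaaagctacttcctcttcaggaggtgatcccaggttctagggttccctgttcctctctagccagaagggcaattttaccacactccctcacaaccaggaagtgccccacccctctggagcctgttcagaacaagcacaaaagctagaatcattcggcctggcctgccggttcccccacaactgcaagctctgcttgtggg
Ndn: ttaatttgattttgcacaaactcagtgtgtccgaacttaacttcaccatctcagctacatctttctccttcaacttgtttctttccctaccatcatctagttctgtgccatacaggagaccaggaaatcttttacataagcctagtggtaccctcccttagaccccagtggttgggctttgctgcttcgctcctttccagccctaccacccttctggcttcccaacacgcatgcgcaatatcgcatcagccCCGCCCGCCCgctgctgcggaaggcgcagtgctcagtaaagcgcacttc
The Grb10 window is 80% G and C with 45 CpG sites, 5 GC boxes and 1 TGCCGC. The Phlda2 window holds 26 CpG sites, 2 GC boxes and 1 TATA box, against 2 CpG sites and none of these motifs in the Slc22a18 window. In the Ndn window there are 11 CpG sites and 2 GC boxes. RefSeq windows were found for 31 of the 38 genes, 48 in all, and TGCCGC is in 27.1% of them against 11.6% of all 32851 windows of that length. The corresponding shares are 54.2% against 35.7% for the GC box and 22.9% against 13.6% for the TATA box. Several genes have more than 1 window, and those of Mest and of Gnas include near-identical ones. The shares thus count some stretches repeatedly. The median window of these genes is 58% G and C with 17 CpG sites, and that of all genes 52.7% with 7. A GC box can share bases with a TGCCGC on the other strand, and these matches are a description of letters, not of binding.

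Among the genes of growth factor signalling, Grb10 fell most and Igf2r rose, while Igf2 did not pass the test. Grb10 encodes an adaptor that restrains signalling by the insulin and IGF receptors. Its signal was 11.83, 11.99 and 11.83 at 0 h, 11.66, 11.88 and 11.52 at 2 h, 11.32, 11.46 and 11.18 at 6 h, and 9.09, 9.78 and 9.65 at 18 h. All 3 arrays of 18 h lay below every other array, and those of 6 h below those of 0 h. The log2 change was -0.56 at 6 h (SE 0.19, adjusted p = 0.0338) and -2.38 at 18 h (SE 0.19, adjusted p = 2.97e-06), a level 5.19-fold lower. From 6 h to 18 h alone the change was -1.81 (SE 0.19, adjusted p = 0.000190), or -0.96 as the mean of both kept probes. The call at 6 h was lost without any 1 of 5 arrays: the change was -0.59 without 0 h replicate 1, -0.51 without replicate 2 and -0.59 without replicate 3, -0.57 without 6 h replicate 1 and -0.49 without 6 h replicate 3, with adjusted p of 0.0621 to 0.107.

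Grb10 lies between Ddc, which encodes aromatic amino acid decarboxylase and is imprinted in the embryonic heart, and Cobl, an actin nucleator. In the RefSeq order of protein-coding genes these 3 follow each other. Both neighbours, which belong to a second list of imprinted genes, fell too. Ddc read 9.45, 8.98 and 9.69 at 0 h and 6.26, 6.97 and 7.11 at 18 h, a change of -2.60 (SE 0.24, adjusted p = 8.99e-06). For Cobl the values were 9.13, 8.80 and 9.55 at 0 h and 5.52, 6.39 and 6.47 at 18 h, a change of -3.03 (SE 0.33, adjusted p = 2.85e-05). The groups did not overlap for either gene, and at 6 h both were already lower, by -0.99 for Ddc (adjusted p = 0.00739) and -1.86 for Cobl (adjusted p = 0.000962). The change of Cobl at 18 h was -1.67 as the mean of its kept probes and -2.01 without background correction.

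Igf2r encodes the receptor that carries IGF2 to the lysosome and so removes it. Its signal was 8.76, 8.88 and 8.83 at 0 h, 8.38, 8.38 and 8.67 at 2 h, 8.89, 9.15 and 9.03 at 6 h, and 9.70, 9.54 and 9.29 at 18 h. The 18 h arrays stood above all others, and the 2 h arrays below all others. At 18 h the log2 change was 0.69 (SE 0.15, adjusted p = 0.00385), and between 2 h and 6 h it was 0.54 (SE 0.15, adjusted p = 0.0347, beside 13.1% of all genes called in that step). At 2 h against 0 h it was -0.35 (adjusted p = 0.261), which did not pass. The step from 2 h to 6 h was lost with the mean of its kept probes (0.46, adjusted p = 0.0961), without 2 h replicate 1 (0.50, adjusted p = 0.117) or 2 (0.50, adjusted p = 0.114), and without 6 h replicate 1 (0.61, adjusted p = 0.0665), 2 (0.48, adjusted p = 0.126) or 3 (0.54, adjusted p = 0.0825). A second probe of Igf2r gave the same change of 0.69 at 18 h.

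Igf2, the paternally expressed fetal growth factor, read 10.94, 11.40 and 10.47 at 0 h, 10.83, 11.22 and 10.57 at 2 h, 10.71, 11.12 and 10.42 at 6 h, and 11.17, 11.21 and 10.13 at 18 h. The 4 groups overlapped, with replicate 3 the lowest in each. At 18 h its log2 change was -0.10 (SE 0.31, adjusted p = 0.835). Of 17 further genes of the insulin and IGF pathway 12 could be tested, and at 18 h 0 rose and 5 fell, with a median change of -0.10, beside 20.9% of all genes higher and 15.7% lower. The 3 largest were Igfbp2, a binding protein for IGFs (-1.20, SE 0.25, adjusted p = 0.00237), Igf2bp1, which binds the Igf2 messenger RNA (-1.14, SE 0.27, adjusted p = 0.00551), and Foxo3, a transcription factor held back by insulin signalling (-1.02, SE 0.24, adjusted p = 0.00454). Foxo3 had its lowest values at 6 h, at -1.44 (adjusted p = 0.000643), and its change at 18 h was -0.54 without background correction.

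The Kcnq1ot1 domain holds 6 of the tested genes, all maternally expressed, under the control of a paternally expressed long RNA, Kcnq1ot1. Phlda2, Slc22a18 and Nap1l4 stand next to each other in it and did not move alike. Phlda2 encodes a small PH domain protein that limits growth of the placenta. It read 10.96, 11.12 and 11.07 at 0 h, 10.93, 10.96 and 10.85 at 2 h, 10.50, 10.90 and 10.34 at 6 h, and 10.04, 9.70 and 9.40 at 18 h. The 6 h arrays were below those of 0 h and the 18 h arrays below all others. Its change was -0.47 at 6 h (SE 0.19, adjusted p = 0.0721) and -1.34 at 18 h (SE 0.19, adjusted p = 0.000155), and -0.87 from 6 h to 18 h (SE 0.19, adjusted p = 0.0119, beside 11.1% of all genes called in that step). The last step was lost without 6 h replicate 2, at -0.71 (adjusted p = 0.0504).

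Slc22a18, a transporter gene, read 5.83, 6.72 and 5.38 at 0 h, 5.48, 4.99 and 5.85 at 2 h, 7.16, 6.82 and 7.03 at 6 h, and 8.05, 6.76 and 6.92 at 18 h. One 0 h array came close to the later ones, and the groups of 6 h and 18 h lay just above it. The gene was detected on 2 of 3 arrays at 2 h and on all others. Its change was 1.03 at 6 h (SE 0.36, adjusted p = 0.0459), 1.27 at 18 h (SE 0.36, adjusted p = 0.0153) and 1.56 from 2 h to 6 h (SE 0.36, adjusted p = 0.0150). Without background correction the changes were 0.48, 0.65 and 0.69, and that at 6 h was no longer called (adjusted p = 0.0836). The 18 h call was lost without 0 h replicate 1 (1.19, adjusted p = 0.0506), without 0 h replicate 3 (0.97, adjusted p = 0.0713) and without 18 h replicate 1 (0.86, adjusted p = 0.0770). The 6 h call was lost under 11 of 24 alternatives, among them the absence of any 1 array of 6 h, of 0 h replicate 1 or 3, of 2 h replicate 1 or of 18 h replicate 3, with adjusted p of 0.0516 to 0.178. The step from 2 h to 6 h was lost without 2 h replicate 2 (1.34, adjusted p = 0.0606) and without 6 h replicate 1 (1.49, adjusted p = 0.0624). The difference in direction between Slc22a18 and Phlda2 was not tested.

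Nap1l4, a nucleosome assembly protein, read 12.14, 12.23 and 11.94 at 0 h, 12.02, 12.20 and 12.00 at 2 h, 11.92, 11.97 and 11.87 at 6 h, and 12.43, 12.45 and 12.32 at 18 h. It was 0.48 higher at 18 h than at 6 h (SE 0.14, adjusted p = 0.0427), but 0.30 at 18 h against 0 h did not pass (adjusted p = 0.110). That step was lost under 13 of 24 alternatives, among them each of the 12 that leave out 1 array except 0 h replicates 2 and 3, with adjusted p of up to 0.227, the value under scaling to the 75th percentile, where it was 0.31. Cd81, a tetraspanin of the cell surface, changed by -0.35 at 18 h (adjusted p = 0.170), and Tssc4, which encodes a nuclear protein, by 0.34 (adjusted p = 0.135). Ascl2, a transcription factor of the trophoblast, was detected on 3, 2, 1 and 0 arrays at 0 h, 2 h, 6 h and 18 h. Its signals were 4.84 to 5.74, not well above background on any array at 18 h, and no comparison of it passed.

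Values of 2 further genes of the domain are given below, which are not all that were tested. Tnfrsf22 and Osbpl5, also of the domain and the second list, had means of 10.02 and 6.66 at 0 h and 11.22 and 7.24 at 18 h. The F test over the 4 groups passed for Tnfrsf22 (adjusted p = 0.00247) and not for Osbpl5 (adjusted p = 0.245). Cdkn1c, a cyclin-dependent kinase inhibitor and the neighbour of Slc22a18 on its other side, read 11.05, 11.34 and 11.19 at 0 h, 11.65, 11.50 and 10.63 at 6 h, and 13.74, 12.46 and 12.87 at 18 h. All 18 h arrays were above all others, a change of 1.83 (SE 0.31, adjusted p = 0.000586). The probe named for Kcnq1ot1, chosen after its values were seen, read 6.89, 6.05 and 6.74 at 0 h and 5.35, 5.97 and 5.23 at 18 h, a change of -1.04 (SE 0.29, adjusted p = 0.0120). The 2 groups were apart by a narrow margin. Its change was -0.43 without background correction and -0.69 with a larger offset, and the call was lost without 0 h replicate 1 (-0.87, adjusted p = 0.0550).

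**Figure D2:**
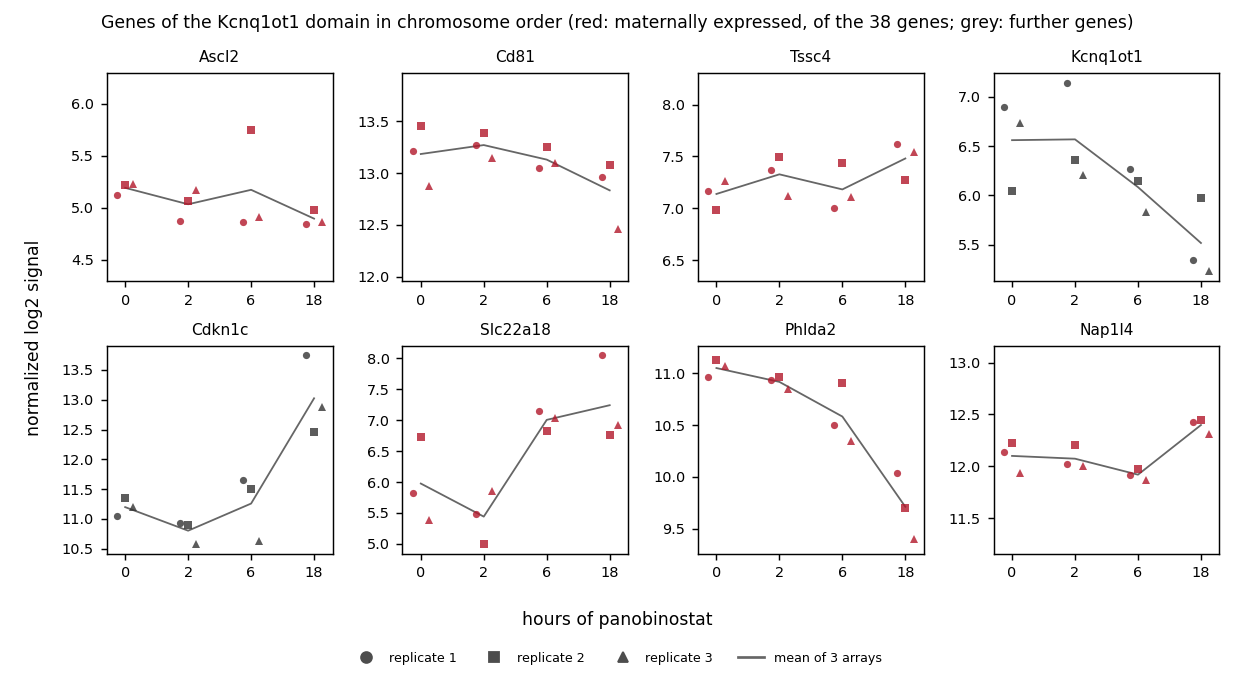
Normalized log2 signal of 8 genes of the Kcnq1ot1 domain in chromosome order, on each of the 12 arrays, by hours of panobinostat. Symbols are replicate numbers, lines join the means of 3 arrays, red genes are among the 38 and grey genes are further members of the domain. At 18 h Cdkn1c reached 13.02 and Slc22a18 7.24 on average, while Phlda2 came down to 9.71, and Cd81 and Tssc4 did not pass the test.

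Ppp1r9a, which encodes the actin-binding protein neurabin, gave the largest change at 6 h. Its signal was 7.40, 7.22 and 7.72 at 0 h, 6.71, 6.91 and 6.86 at 2 h, 5.27, 5.72 and 5.82 at 6 h, and 5.43, 6.47 and 6.47 at 18 h. The 2 h, 6 h and 18 h arrays all lay below those of 0 h, and those of 6 h and 18 h overlapped. The change was -0.62 at 2 h (SE 0.26, adjusted p = 0.222), -1.85 at 6 h (SE 0.26, adjusted p = 0.000232) and -1.33 at 18 h (SE 0.26, adjusted p = 0.00155). The step from 2 h to 6 h was -1.23 (SE 0.26, adjusted p = 0.010), which was lost without 6 h replicate 1 (-1.06, adjusted p = 0.0547). Without background correction the changes were -0.91 at 6 h, -0.70 at 18 h and -0.54 from 2 h to 6 h, all still called, and the last was -0.74 as the mean of both probes. In its cluster the retrotransposon-derived Peg10 read 6.09, 6.28 and 4.88 at 0 h and 6.76, 6.77 and 6.45 at 18 h. The groups of Peg10 did not overlap, and its change of 0.91 (SE 0.38, adjusted p = 0.0764) did not pass. In a limma fit with the replicate number as a block that change passed (adjusted p = 0.0107). Further genes of the cluster in the second list included Calcr, the calcitonin receptor, and Pon2, a lactonase. Pon3, of the same cluster and list, did not pass (-0.14 at 18 h, adjusted p = 0.608). Calcr was not well above background on any array of 0 h or 2 h and was detected on all arrays of 6 h and 18 h, with 6.76, 6.30 and 5.82 at 18 h. Against the lowest detected signals it was at least 2.35-fold higher at 18 h than at 0 h (adjusted p = 8.48e-05). It passed the filter on dim probes only through the groups where it is high, so its call is no independent support. Pon2 fell from 8.89, 8.89 and 8.73 at 0 h to 7.03, 7.79 and 7.34 at 18 h, a change of -1.45 (SE 0.22, adjusted p = 0.000279).

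Gnas encodes the alpha subunit of the stimulatory G protein. Its brightest probe read 6.91, 7.54 and 6.82 at 0 h, 6.88, 7.03 and 6.71 at 2 h, 6.49, 6.69 and 6.63 at 6 h, and 5.96, 6.06 and 5.46 at 18 h. The mean of each later group was lower, and the 18 h arrays were below all others. The log2 change was -0.49 at 6 h (SE 0.21, adjusted p = 0.0952) and -1.26 at 18 h (SE 0.21, adjusted p = 0.000573), with -0.77 from 6 h to 18 h (SE 0.21, adjusted p = 0.0346). The change at 18 h was -0.61 without background correction and -0.65 as the mean of its kept probes, called in both. The step from 6 h was lost in these settings (-0.34, adjusted p = 0.0741, and -0.22, adjusted p = 0.528), without any 1 array of 6 h (-0.73 to -0.83, adjusted p = 0.0730 to 0.101) and without 18 h replicate 3 (-0.59, adjusted p = 0.115). The locus makes several overlapping transcripts, maternal, paternal and biallelic, and its 5 kept probes did not move alike. At 18 h, when 32.3% of all kept probes were called, 3 of them fell: the brightest, a second one at -0.94 (adjusted p = 0.0157 over all kept probes), and 1 that was not detected on any array by then, while the other two read -0.16 and 0.24 (adjusted p = 0.641 and 0.374). The second one was itself near background, detected on 2, 2, 1 and 1 arrays at 0 h, 2 h, 6 h and 18 h. Which transcript each probe reads was not determined here.

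Impact, a paternally expressed regulator of translation that binds GCN1, fell late. It read 10.54, 10.54 and 10.35 at 0 h, 10.79, 10.79 and 10.56 at 2 h, 10.27, 10.43 and 10.44 at 6 h, and 9.34, 9.59 and 9.35 at 18 h. The first 3 groups lay close together and all 18 h arrays were below them. Its change was -0.10 at 6 h (adjusted p = 0.656), -1.05 at 18 h (SE 0.14, adjusted p = 0.000145) and -0.95 from 6 h to 18 h (SE 0.14, adjusted p = 0.00210). As the mean with a dim second probe, detected on 0 arrays at 18 h, the changes to 18 h from 0 h and from 6 h were -0.61 and -0.48, and the step from 6 h was no longer called (adjusted p = 0.0514). Slc38a4, a paternally expressed amino acid transporter of the placenta and liver, read 9.62, 9.46 and 9.82 at 0 h, 9.53, 9.54 and 9.51 at 2 h, 9.12, 9.23 and 9.32 at 6 h, and 8.94, 9.21 and 8.99 at 18 h. The 2 h arrays lay within the range of 0 h, and those of 6 h and 18 h below it. Its changes were -0.41 at 6 h (SE 0.15, adjusted p = 0.0484) and -0.59 at 18 h (SE 0.15, adjusted p = 0.00701). The 6 h call was lost under 12 of 24 alternatives, which leave out any 1 array of 0 h except replicate 2, of 2 h or of 6 h, or 18 h replicate 3, or scale to the 75th percentile, fit only the groups compared or adjust over all kept probes, with adjusted p of 0.0553 to 0.174.

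Among the tested members in the cluster of Snrpn and Ube3a, Ube3a fell and Ndn rose. Ube3a, a ubiquitin ligase imprinted mainly in neurons, read 8.00, 7.54 and 8.46 at 0 h, 7.91, 7.95 and 7.79 at 2 h, 7.75, 7.09 and 7.35 at 6 h, and 7.02, 7.26 and 7.53 at 18 h. The highest 18 h array lay just under the lowest 0 h array. Its change was -0.60 at 6 h (SE 0.23, adjusted p = 0.0665) and -0.73 at 18 h (SE 0.23, adjusted p = 0.0257). The 18 h call was lost when only the 2 groups compared were fitted (adjusted p = 0.0604) and without 0 h replicate 1 (-0.73, adjusted p = 0.0619), 0 h replicate 3 (-0.50, adjusted p = 0.119), 18 h replicate 1 (-0.61, adjusted p = 0.102) or 18 h replicate 2 (-0.73, adjusted p = 0.0576).

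Ndn encodes necdin, a MAGE family protein of neurons. It read 10.26, 10.22 and 9.44 at 0 h, 10.30, 10.53 and 9.64 at 2 h, 10.38, 10.69 and 10.01 at 6 h, and 11.18, 10.96 and 10.75 at 18 h. All 18 h arrays were above all others, and replicate 3 was the lowest array of each group. The change at 18 h was 0.99 (SE 0.27, adjusted p = 0.0123), and the call was lost without 0 h replicate 3 (0.72, adjusted p = 0.0593) and without 18 h replicate 1 (0.88, adjusted p = 0.0527). Mkrn3, a ring finger protein of the same cluster, read 8.48, 8.96 and 8.61 at 0 h and 8.31, 8.22 and 7.85 at 2 h, without overlap, and 8.38, 9.28 and 8.64 at 18 h. Its change was -0.56 at 2 h (adjusted p = 0.202) and 0.08 at 18 h (adjusted p = 0.807). Snrpn had no probe under its own name. A probe named for Snurf, which shares a transcript with Snrpn and was chosen after its values were seen, read 13.04, 12.77 and 12.76 at 0 h and 11.71, 11.93 and 11.66 at 18 h, a change of -1.09 (SE 0.20, adjusted p = 0.000932).

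Peg3 was the only one of the 28 that was called higher at 6 h and lower again from 6 h to 18 h. Peg3 encodes a zinc finger protein linked to growth and maternal behaviour. It read 9.09, 9.18 and 8.52 at 0 h, 9.31, 9.43 and 8.99 at 2 h, 10.22, 9.53 and 9.57 at 6 h, and 8.94, 9.17 and 8.87 at 18 h. The 6 h arrays stood above all others, and 0 h and 18 h overlapped. Its change was 0.84 at 6 h (SE 0.22, adjusted p = 0.0126), 0.06 at 18 h (adjusted p = 0.858) and -0.78 from 6 h to 18 h (SE 0.22, adjusted p = 0.0427). The 6 h call was lost without 0 h replicate 3 (0.63, adjusted p = 0.0583) and without 6 h replicate 1 (0.61, adjusted p = 0.0664). The later step was lost under 11 of 24 alternatives, among them the absence of any 1 array of 6 h or 18 h, of 0 h replicate 1 or of 2 h replicate 1 or 2, with adjusted p of up to 0.169. Its divergent neighbour Usp29, a ubiquitin protease whose start lies 164 bases away, was detected on 1, 0, 2 and 0 arrays at 0 h, 2 h, 6 h and 18 h and changed by 0.40 at 6 h (adjusted p = 0.273).

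**Figure D3:**
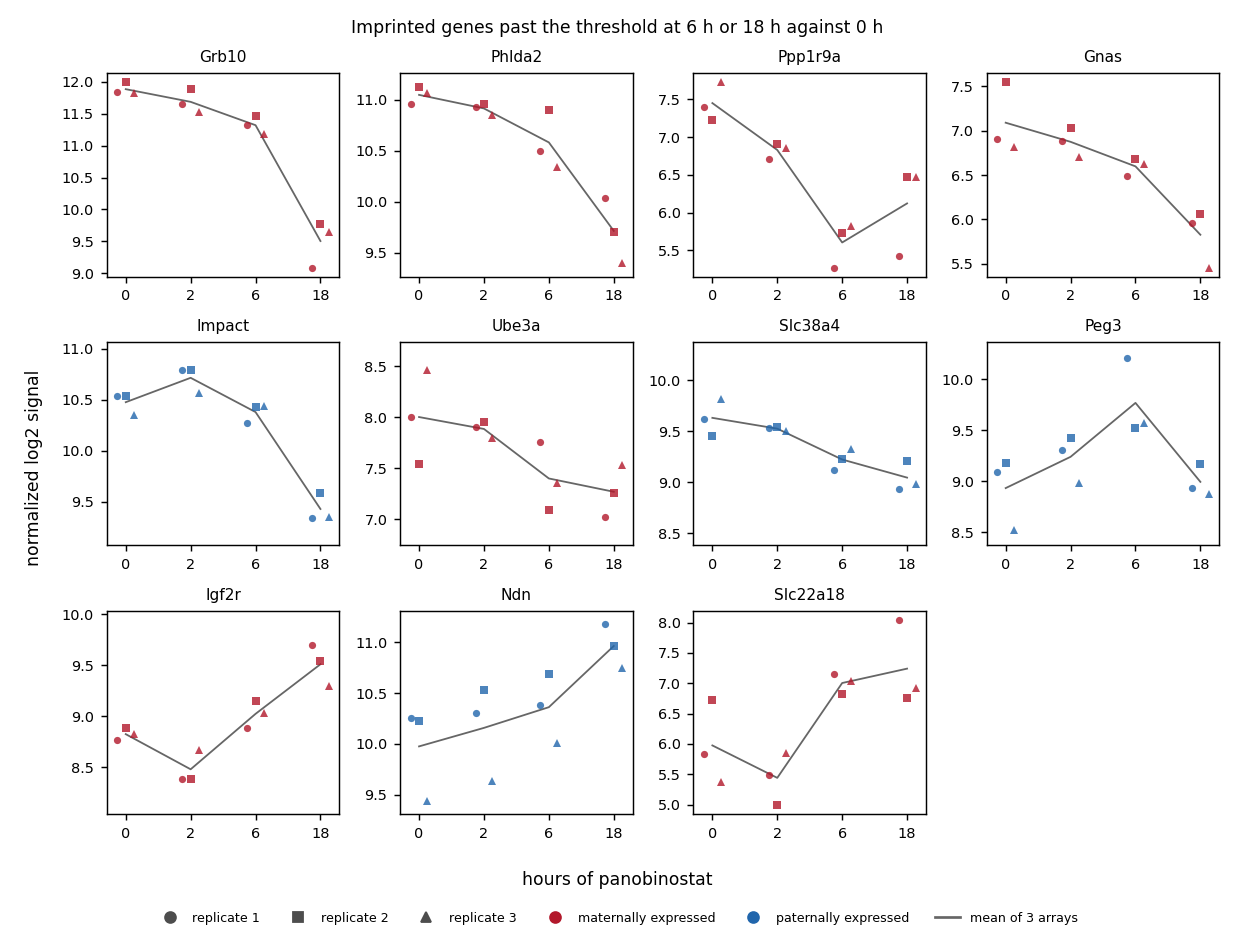
Normalized log2 signal of the 11 imprinted genes called at 6 h or 18 h against 0 h, on each of the 12 arrays, by hours of panobinostat. Symbols are replicate numbers, lines join the means of 3 arrays, red genes are maternally and blue genes paternally expressed, and each panel has its own axis. Grb10, Phlda2, Gnas and Impact have their lowest arrays at 18 h, Ppp1r9a its lowest mean at 6 h, and Peg3 its highest mean at 6 h.

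In the Dlk1 and Meg3 cluster none of the tested members among the 38 genes passed against 0 h in the fit without a replicate block. Dio3, a deiodinase gene of the cluster from the second list, named after its values were seen, read 6.32, 5.40 and 5.02 at 0 h and 7.37, 6.89 and 6.01 at 18 h. These groups overlapped, and the change was 1.18 (adjusted p = 0.0319). Dio3 was detected on 2 arrays at 0 h, its F test over the 4 groups did not pass (adjusted p = 0.0987), and it was not refitted under other settings. Rian, of the same cluster and list, changed by -0.46 at 18 h and did not pass (adjusted p = 0.107). Dlk1, a transmembrane relative of Notch ligands, read 9.51, 9.87 and 8.97 at 0 h, 9.24, 9.49 and 8.20 at 2 h, 9.59, 10.01 and 8.68 at 6 h, and 10.89, 10.59 and 9.63 at 18 h. Replicate 3 was the lowest array in every group, and the highest 0 h array exceeded the lowest 18 h array. The change at 18 h was 0.92 (SE 0.42, adjusted p = 0.10). In a limma fit with the replicate number as a block this change passed (adjusted p = 0.0011). The labels do not say what a number marks. Meg3, a maternally expressed long RNA, was detected on 1, 1, 0 and 1 arrays at 0 h, 2 h, 6 h and 18 h, with signals of 4.47 to 5.46. Rtl1, a retrotransposon-derived gene of the placenta, read 6.21, 5.45 and 5.83 at 0 h, 6.31, 6.35 and 6.19 at 2 h, 5.75, 6.22 and 5.62 at 6 h, and 5.34, 5.31 and 5.77 at 18 h. Its F test over the 4 groups passed (adjusted p = 0.0451) while each change against 0 h did not, at 0.45 for 2 h (adjusted p = 0.294), 0.03 for 6 h and -0.36 for 18 h (adjusted p = 0.218).

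The remaining tested genes gave small changes that did not pass. Mest, a hydrolase, changed by 0.38 at 18 h (adjusted p = 0.261) and its overlapping partner Copg2, a coatomer subunit, by 0.13 (adjusted p = 0.741). Nnat, neuronatin, changed by 0.36 at 2 h, 0.50 at 6 h (adjusted p = 0.0629) and 0.20 at 18 h, and Blcap, within which it lies, by -0.24 at 18 h (adjusted p = 0.266). Commd1, a regulator of copper export and NF-kB, changed by 0.05 at 18 h (adjusted p = 0.855), and H13, the signal peptide peptidase, by -0.12 (adjusted p = 0.754). The probe used for H13 differed from another kept probe of that gene. That probe read 5.13, 4.57 and 5.63 at 0 h, 6.23, 5.67 and 6.17 at 2 h, 6.17, 6.4 and 6.21 at 6 h, and 5.23, 5.34 and 5.29 at 18 h. Its 2 h and 6 h arrays lay above the other two groups, by 0.91 at 2 h (adjusted p = 0.0564 over all 20029 kept probes, of which 2.56% were called) and 1.15 at 6 h (SE 0.23, adjusted p = 0.00275, beside 27.2% of all probes called), while the probe used gave -0.32 and -0.39. H13 is known to use several polyadenylation sites, and which transcript end either probe reads was not determined here. A dim second probe of Grb10 read 5.87, 5.60 and 5.96 at 0 h and 4.95, 5.08 and 5.03 at 2 h. It was detected on 3 arrays at 0 h and on 1, 1 and 0 arrays afterwards, so it was kept only through 0 h and no change is given for it. These probes were singled out after their values were seen.

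**Figure D4:**
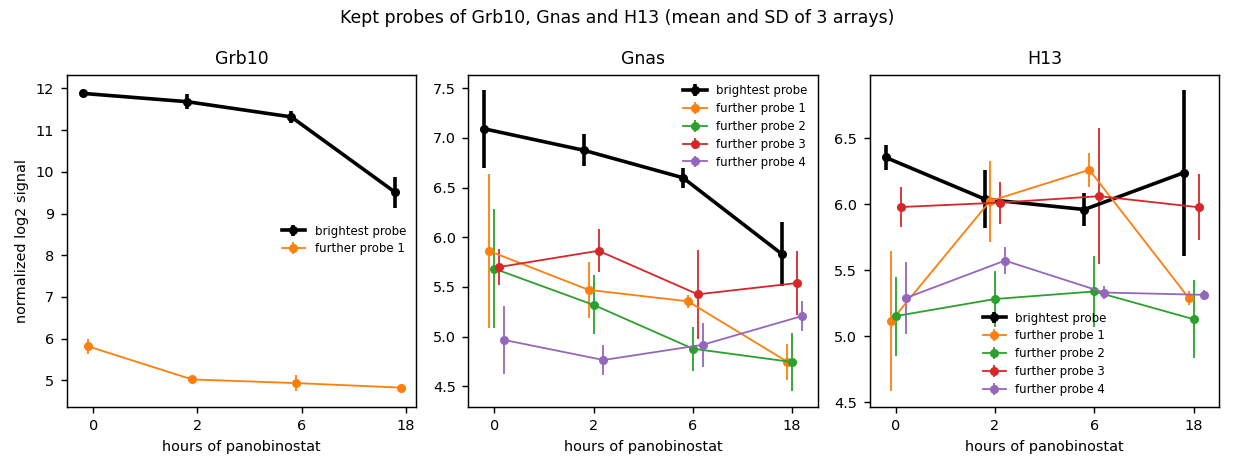
Mean normalized log2 signal of every kept probe of Grb10, Gnas and H13 by hours of panobinostat, with the SD of 3 arrays as bars and the probe used for the gene in black. The dim probe of Grb10 reads 5.81 at 0 h and 5.02 at 2 h, 3 of the 5 probes of Gnas decline to 18 h, and 1 further probe of H13 peaks at 6.26 at 6 h.

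In 6 listed pairs of imprinted genes that are nested, overlap or start side by side, both partners could be tested in 3. An exact permutation test of F on the within-array difference between partners, over 369600 assignments of arrays to groups, called none of the 3. It gave p = 0.156 for Nnat and Blcap (0.467 adjusted over the 3 pairs, exact test), 0.966 for Mest and Copg2. Usp29 was detected on 3 of the 12 arrays, so the test of Usp29 and Peg3 says nothing of that pair and its p is not given. For Nnat minus Blcap the mean difference was -2.19 at 0 h (SD 0.22), -1.53 at 6 h (SD 0.17) and -1.75 at 18 h (SD 0.52, n = 3). A p above the threshold does not show that the partners moved together.

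For 7 of the 38 genes no probe was detected on any of the 12 arrays. These were Zim1, a zinc finger gene, and Dcn, which encodes the proteoglycan decorin and is also a fibroblast marker, both maternally expressed, and the paternally expressed Plagl1, Sgce, Nap1l5, Magel2 and Mcts2. Plagl1 is a zinc finger factor and Sgce a sarcoglycan, while Nap1l5 and Mcts2 are retrogenes. Their unnormalized signals were 88.2 to 136 units and their lowest detection p was 0.131. Their levels were not detectable on these arrays, which does not show that they are absent. No probe is named for H19, the long RNA beside Igf2, for Snrpn or for Zrsr1, a splicing factor retrogene inside Commd1, and they were not analysed here.

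Of 48 further imprinted genes 29 could be tested, and at 18 h 10 rose and 9 fell (65.5% called, beside 36.6% of all genes), with a median change of 0.04. Among the 29, Calcr, Rasgrf1 and Gatm were detected on no array of 0 h or 2 h and were kept only through the later groups. The share called is therefore no independent support. At 6 h 5 rose and 7 fell, beside 17.7% and 13.6% of all genes. At 2 h none was called by limma, beside 3.48% of all genes, with 2 at an unadjusted p under 0.05, beside 18%. The 3 largest rises were those of Cdkn1c and Calcr and of Qpct, glutaminyl cyclase, which read 5.64, 6.00 and 5.01 at 0 h and 6.80, 6.69 and 7.24 at 18 h, without overlap, a change of 1.36 (SE 0.26, adjusted p = 0.00128) that was 0.60 without background correction. The 3 largest falls were those of Cobl, Ddc and Pon2.

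Of 30 listed factors that set, keep, read or remove imprints 22 could be tested. At 18 h 1 rose and 10 fell, with a median change of -0.46, beside 20.9% and 15.7% of all genes. At 6 h 2 rose and 5 fell, 31.8% called, which is close to the 31.3% of all genes. Tet1, which oxidizes methylated cytosine, read 11.23, 10.63 and 11.89 at 0 h, 11.36, 10.27 and 11.65 at 2 h, 9.70, 8.42 and 9.84 at 6 h, and 6.60, 8.56 and 8.06 at 18 h. The 6 h and 18 h arrays all lay below those of 0 h. Its change was -1.93 at 6 h (SE 0.52, adjusted p = 0.0130) and -3.51 at 18 h (SE 0.52, adjusted p = 0.000251), and the 6 h call was lost without 0 h replicate 3 (-1.61, adjusted p = 0.0554) and without 6 h replicate 2 (-1.48, adjusted p = 0.0640). Cbx5, the heterochromatin protein HP1 alpha, fell by 1.45 on the log2 scale at 18 h (SE 0.27, adjusted p = 0.00110), or by 0.79 without background correction. Trim28, the corepressor that ZFP57 recruits, read 13.05, 12.30 and 12.58 at 0 h and 11.60, 11.58 and 11.83 at 18 h, a change of -0.97 (SE 0.21, adjusted p = 0.00274). Kdm1b, a histone demethylase needed for imprints to be set in the egg, read 8.69, 8.86 and 8.47 at 0 h, 10.28, 9.86 and 10.21 at 6 h, and 9.77, 9.40 and 9.82 at 18 h. It was the 1 gene of the list that rose at 18 h, by 0.99 (SE 0.18, adjusted p = 0.000966). Methylation was not measured here.

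**Figure D5:**
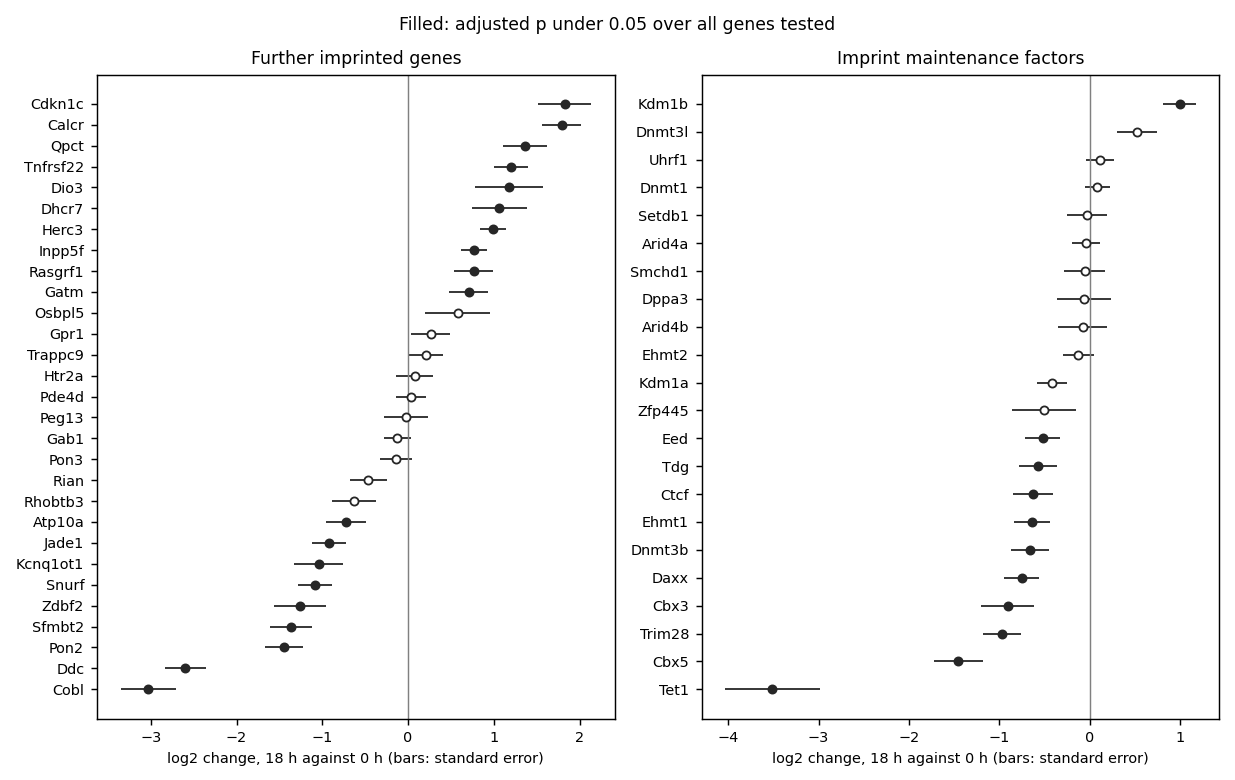
Log2 change at 18 h against 0 h, with SE bars from the limma fit. The left panel shows the 29 tested further imprinted genes. The right panel, titled imprint maintenance factors, shows the 22 tested factors that set, keep, read or remove imprints. Filled points passed an adjusted p of 0.05 over all 11445 genes. On the left 10 filled points lie above 0 and 9 under it, and on the right 1 lies above 0 and 10 under it, with Tet1 lowest at -3.51.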

How the data were processed

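RNA of 12 samples of E14 cells was read on Illumina bead arrays. The deposited table gives a signal intensity on a linear scale, not normalized, and a detection p-value per probe and array, per the file headers. GenomeStudio is named in the submitters' processing notes, and neither its version nor its background setting is given there. A second deposited table holds intensities that, as its values show, the authors quantile normalized on a linear scale, and its log2 values served as an alternative.

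Here intensities were corrected by normexp with negative control statistics inferred from the detection p-values (limma 3.58.1, R 4.3.3, offset 16), quantile normalized and put on the log2 scale. Probes detected (p under 0.05) on 3 or more of 12 arrays were kept, 20029 of 45281, and the brightest stands for its gene. Of all probes 34885 carry 1 gene symbol, 18 several and 10378 none in the platform annotation, and 34807 symbols were brought up to date through RefSeq. A linear model with 1 mean per group gave moderated tests, two-sided, with Benjamini-Hochberg adjustment over 11445 genes and a threshold of 0.05. The fit was tested on simulated data. The number of arrays limits the precision, with a median SE of 0.20 at 18 h.

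All 38 genes are named. Those called against 0 h are given with every array. Of 3 companion lists the 3 largest called changes in each direction at 18 h are given. The lists are further imprinted genes, factors that set, keep, read or remove imprints, and the insulin and IGF pathway. The members and lists were chosen with earlier results of these data known. Alternatives were other background, scaling, filter, probe and model settings and leaving out each array. The labels number the arrays 1 to 3 in each group without saying what a number marks. Of 18 pairs of arrays with the same number, 16 had deviations from the group means that correlated above 0.1 (range 0.066 to 0.487). All 12 arrays correlated best with an array of their own number among those of other groups. As the labels name no pairing, the main fit has no block, and the number served as a block in an alternative. If the numbers mark shared batches, the main calls leave that pairing out.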

Additional observations from a re-analysis of the deposited data

How the results depend on the processing

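Across 43 named changes and 1032 refits under other settings, 947 kept direction and call, 85 kept the direction only and 0 reversed, and 26 of the changes were called throughout. Without single arrays the count of imprinted genes called stayed at 0 to 0 for 2 h, and ranged from 1 to 7 for 6 h, 7 to 11 for 18 h, 0 to 3 from 2 h to 6 h, 2 to 7 from 6 h to 18 h and 9 to 12 over any time. No pair of genes was called in any of these, 0 to 0. In the main fit 3 of the 28 were called from 2 h to 6 h (10.7%, beside 13.1% of all genes). From 6 h to 18 h it called 6 (21.4%, beside 11.1%). With the mean of kept probes 3 genes were called from 6 h to 18 h. With the replicate number as a block 8 were called at 6 h and 10 from 6 h to 18 h. The share of all genes called in that block fit is not given here, so these 2 counts are not read as particular to imprinted genes. That fit added Gnas, Phlda2 and Ube3a at 6 h, and at 18 h Dlk1 (adjusted p = 0.0011) and Peg10 (adjusted p = 0.0107). In deviations from the group means, all 12 arrays correlated best with an array of their own number among those of other groups. This is a hint from the data and not from the design. Replicate 3 was the lowest array in all 4 groups for 6 of the 28 genes, beside 6.51% of all genes. The block, array weights and a fit of only the groups compared do not apply to the pair test, nor the last to the F test. A slide block was not run, since the headers used here give no slides. Signals near background limit Meg3, Ascl2, Usp29, Peg10 and Slc22a18, each undetected on 1 or more arrays.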
